A study of Mus musculus with 6 samples.

Results

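The growth hormone receptor, STAT5 and IGF1 axis was followed through 10 genes in the livers of mice fed a MASH diet. The genes were listed by their known roles, and all gene lists here were drawn up with earlier results of these data known. The axis genes were the receptors *Ghr* and *Prlr*, the kinase *Jak2* and the transcription factors *Stat5a* and *Stat5b*. With them stood the feedback inhibitors *Socs2* and *Cish* and the hepatic targets *Igf1*, *Igfals* and *Bcl6*. Each symbol matched 1 row among the 25403 genes of the count table, and all 10 genes had enough counts to be among the 14496 genes tested. Bulk poly(A) RNA-seq compared 3 livers labelled WT (C57BL6/J) with 3 livers labelled *Themis*-KO, in which *Themis* is inactivated in the whole body. Mice of both groups began the diet when 10 to 12 weeks old and ate it for 3 months. The study describes this feeding experiment as one in male mice. The diet was rich in fat (40 kcal%) and fructose (20 kcal%), with cholesterol added at 2%. The labels give no strain background for the *Themis*-KO mice and no time of day or feeding state for the dissection.

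Growth hormone reaches hepatocytes in pulses from the pituitary and binds GHR, which activates the kinase JAK2. JAK2 phosphorylates STAT5A and STAT5B, which enter the nucleus and switch on genes such as *Igf1*, the source of most circulating IGF1, and *Igfals*, whose product holds IGF1 in a stable complex in plasma. *Socs2* and *Cish* are switched on by the same signal and dampen it, and *Bcl6* encodes a repressor that STAT5 holds down. Because male mice secrete the hormone in sharper pulses than females, many sex-biased genes of the mouse liver depend on this axis.

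The core of the sequence bound by STAT5 is TTCNNNGAA, a palindrome that reads the same on both strands. It was searched in RefSeq promoter windows (GRCm38.p6, from 250 bases before to 50 after a transcription start site). Windows were at hand for 9 of the 10 genes, *Socs2* being the one without, and 6 of their 17 windows (35.3%) held a match, against 8.3% of all 32851 windows. The matches lay in *Cish*, *Bcl6*, *Igfals* and *Prlr*. No match was found in the windows of *Ghr*, *Jak2*, *Stat5a*, *Stat5b* or *Igf1*, which says only that these letters are not there. For lists described below, the male-biased targets had a match in 1 of 17 windows (5.88%) and the female-biased targets in 4 of 25 (16%). The lipid uptake and storage genes had a match in 0 of 9 windows. Windows with 2 or more matches made up 0.457% of all windows, and 2 of them belonged to the axis. One is the *Cish* window (chr9:107296409-107296708, forward strand), with matches that begin at bases 1 and 12 counted from the start site. The other is an inner start site of *Bcl6* (chr16:23981234-23981533, reverse strand), with 3 matches that begin at bases −168, −122 and −88. The *Igfals* window with a match at base −58 (chr17:24877981-24878280, forward strand) is shown as well, since *Igfals* had the largest fall among the 10 genes. A match is a string of letters and not a measured binding site. Each window is written 5′ to 3′ with the matches in capitals:
Cish: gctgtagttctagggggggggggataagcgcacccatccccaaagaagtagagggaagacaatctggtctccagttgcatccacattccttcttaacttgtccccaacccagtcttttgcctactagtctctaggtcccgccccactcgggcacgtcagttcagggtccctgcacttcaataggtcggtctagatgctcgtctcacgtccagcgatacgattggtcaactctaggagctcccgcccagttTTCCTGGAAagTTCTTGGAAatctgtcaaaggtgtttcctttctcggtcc
Bcl6: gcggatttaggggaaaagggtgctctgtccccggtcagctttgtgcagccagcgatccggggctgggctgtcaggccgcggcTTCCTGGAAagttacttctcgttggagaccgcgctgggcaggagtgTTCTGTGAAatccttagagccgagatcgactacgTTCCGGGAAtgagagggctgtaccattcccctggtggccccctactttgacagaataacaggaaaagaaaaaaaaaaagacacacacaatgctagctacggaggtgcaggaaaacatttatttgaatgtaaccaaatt
Igfals: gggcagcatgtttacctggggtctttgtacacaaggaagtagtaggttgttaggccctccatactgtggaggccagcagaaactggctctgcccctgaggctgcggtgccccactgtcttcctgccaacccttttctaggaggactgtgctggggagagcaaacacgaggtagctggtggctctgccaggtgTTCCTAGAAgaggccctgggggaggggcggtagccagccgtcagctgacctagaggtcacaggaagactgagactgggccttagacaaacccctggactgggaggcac

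Library totals lay between 20679642 and 25649767 counts. Expression is given as CPM, the counts of a gene scaled to a common library size after TMM normalization. *Themis* itself (chromosome 10, 28668360 to 28883818 of GRCm38) had a CPM of 8.07, 25.6 and 12.0 in the livers labelled WT and 8.63, 7.74 and 9.97 in those labelled *Themis*-KO (log2 fold change −0.79, SE 0.38, adjusted p = 0.199). The counts of the targeted gene therefore did not separate the labels, and every direction given here rests on the labels. WT replicates 1 and 2 stood apart from the other 4 livers, since *Gm28438* took 96.6% and 96.8% of the summed counts of *Gm28438* and the mitochondrial *mt-Nd3*, against 2.2% to 3.26% in the others. This split is called the mitochondrial type below, and it leaves 1 WT liver, replicate 3, of the same type as the *Themis*-KO livers. The Y-linked *Ddx3y* lay between 36.3 and 45.4 CPM in all 6 livers, and *Xist* reached at most 0.378 CPM. All 11 tested hepatocyte markers were expressed in every liver, with *Alb* between 33597 and 43023 CPM.

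Compared per kilobase of exon, *Ghr* was the most abundant of the 10 mRNAs in livers labelled WT, with a mean of 51.0 CPM per kb and a range from 45.7 to 57.0 over 3 livers. *Igf1* followed with 32.7 (30.7 to 33.8), *Igfals* with 15.4 (10.9 to 18.6) and *Stat5b* with 9.53 (9.36 to 9.72), and the ranges of these 4 neighbours were apart. From *Jak2* (4.59) through *Bcl6* (4.32), *Stat5a* (3.65), *Cish* (2.37) and *Socs2* (1.80) to *Prlr* (1.57 CPM per kb), the ranges of neighbours overlapped. In livers labelled *Themis*-KO the order began with *Ghr* (34.1, range 29.4 to 39.1), *Igf1* (24.9, 20.2 to 28.7), *Stat5b* (10.8, 8.85 to 12.6) and *Igfals* (7.39, 5.77 to 8.35 CPM per kb). *Igfals* thus lay below *Stat5b* in every liver of that group and above it in every WT liver. These levels divide CPM by the summed length of all annotated exons of a gene (GENCODE vM21), which can exceed the length of the mRNA in use.

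*Ghr*, the receptor gene, and *Igfals*, the carrier of IGF1, were lower in livers labelled *Themis*-KO, and the other 8 genes did not pass the test. The log2 fold change was −0.58 for *Ghr* (adjusted p = 0.0404, SE 0.13) and −1.05 for *Igfals* (adjusted p = 0.0335, SE 0.22). These were the 2 of 10 genes that passed an adjusted p of 0.05 in edgeR's quasi-likelihood test, both lower, while 4.14% of all tested genes passed as lower and 9.11% in either direction. *Prlr* and *Igf1* were also lower in every liver without passing. Together 4 of the 10 genes were lower without overlap between the groups, a pattern seen in 16.9% of all tested genes. Among the 10 genes, 0 rose by this test, 1 was higher at an unadjusted p under 0.05, and 0 rose with DESeq2. At that unadjusted threshold, 2438 of all 14496 tested genes were higher and 2011 lower. The median log2 fold change of the 10 genes was −0.21, and that of all tested genes was 0.0095.

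**Figure D1:**
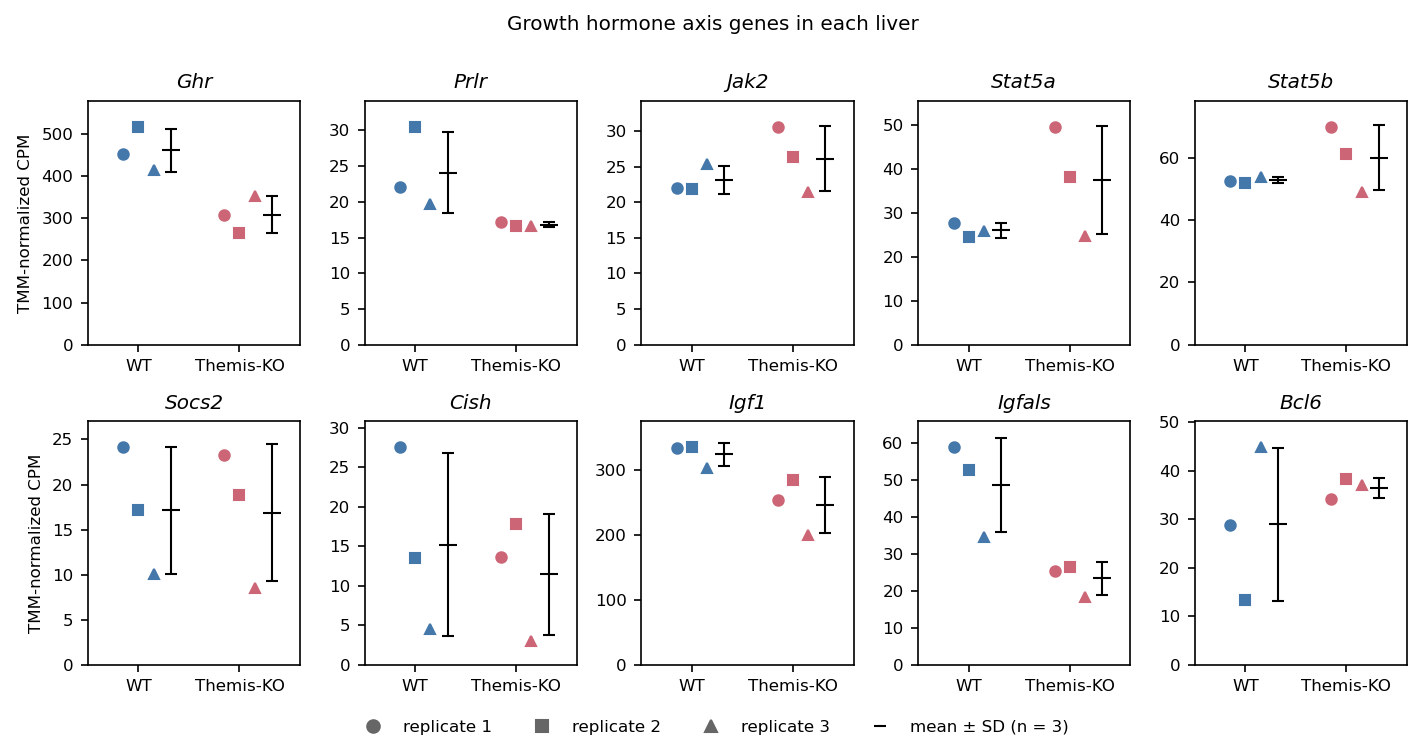
TMM-normalized CPM of the 10 genes in each liver, with 1 panel per gene on its own axis from 0; marker shapes are replicates, and bars are the mean ± SD of 3 livers. *Ghr*, *Prlr*, *Igf1* and *Igfals* were lower in every *Themis*-KO liver than in every WT liver, and the other 6 genes overlapped.

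*Ghr* (ENSMUSG00000055737, chromosome 15, 3317760 to 3583492, reverse strand) encodes the hormone's receptor, and its counts also include a shorter transcript for the secreted binding protein. WT livers 1, 2 and 3 had 454, 516 and 414 CPM, a mean of 461 ± 51.5 (SD, n = 3), and the *Themis*-KO livers, in the same order of replicate number, 307, 266 and 354 CPM, a mean of 309 ± 43.9. Every *Themis*-KO liver lay below every WT liver, at 0.669 times the WT mean. The 95% interval of the log2 fold change ran from −0.89 to −0.27. *Prlr* (chromosome 15, 10177238 to 10349180), the prolactin receptor, which also signals through JAK2 and STAT5, had a CPM of 22.1, 30.5 and 19.8 in WT and 17.2, 16.6 and 16.6 in *Themis*-KO livers. The groups did not overlap, but the change of −0.52 (SE 0.16, adjusted p = 0.0762) missed the threshold, and the *Themis*-KO livers were much closer to each other (CV 2.06%) than the WT livers (23.4%).

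*Jak2* (chromosome 19, 29251828 to 29313080) had a CPM of 22.0, 21.9 and 25.4 in WT and 30.6, 26.4 and 21.4 in *Themis*-KO livers. The groups overlapped, and the log2 fold change of 0.18 had an interval from −0.15 to 0.50 (adjusted p = 0.415). *Stat5b* (chromosome 11, 100780731 to 100850724, reverse strand), the main STAT5 gene of liver, had 52.7, 51.8 and 53.8 CPM in WT and 69.9, 61.1 and 49.0 in *Themis*-KO livers, with a change of 0.19 (interval −0.11 to 0.48, adjusted p = 0.352). Its neighbour *Stat5a* (chromosome 11, 100859351 to 100885169) had 27.8, 24.5 and 25.8 CPM in WT and 49.6, 38.1 and 24.8 in *Themis*-KO livers. The change of 0.53 (SE 0.22, adjusted p = 0.154) did not pass. For all 3 genes *Themis*-KO replicate 3 was the low liver of its group. Without it, *Stat5a* was higher by 0.74 (adjusted p = 0.00591) and *Stat5b* by 0.30 (adjusted p = 0.0331). In that fit 4267 of all 14806 tested genes passed. Without *Themis*-KO replicate 1, *Stat5a* was at 0.27 (adjusted p = 0.436) and *Stat5b* at 0.057 (adjusted p = 0.818). Neither gene passed in any other fit that left out a liver. The STAT5 genes are close copies, and 3.44% of the 100-base words in *Stat5a* transcripts also occur in *Stat5b*, so few of their reads could be exchanged between them.

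**Figure D2:**
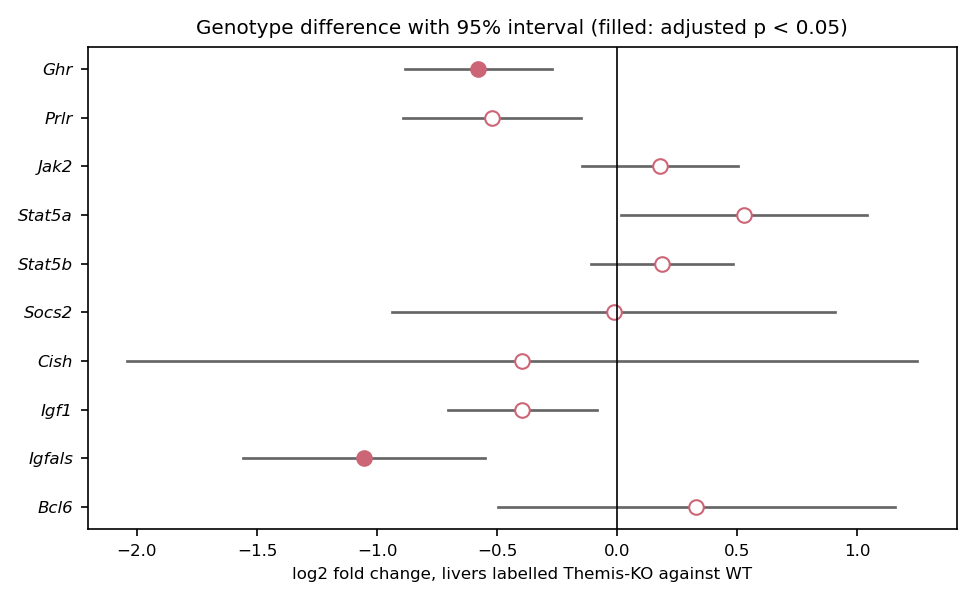
Log2 fold change of each gene in livers labelled *Themis*-KO against WT, with its 95% interval from edgeR's quasi-likelihood test; filled points passed an adjusted p of 0.05. *Ghr* and *Igfals* passed, the intervals of *Prlr*, *Stat5a* and *Igf1* left out 0 without passing after adjustment, and those of *Socs2*, *Cish* and *Bcl6* were wide.

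The feedback inhibitors varied more between livers of 1 group than between the groups. *Cish* (chromosome 9, 107296026 to 107302784) had 27.5, 13.6 and 4.50 CPM in the WT livers, against 13.6, 17.8 and 2.98 in the *Themis*-KO livers. The highest liver of a group had 6.12 times the lowest in WT and 6.0 times in *Themis*-KO livers, the widest span of the 10 genes in either group. *Socs2* (chromosome 10, 95385362 to 95417180, reverse strand) had 24.1, 17.2 and 10.1 CPM in WT and 23.3, 18.8 and 8.55 in *Themis*-KO livers. In both groups replicate 3 was the lowest liver for both genes. The group difference was −0.40 for *Cish* (interval −2.04 to 1.25, adjusted p = 0.733) and −0.015 for *Socs2* (interval −0.94 to 0.91, adjusted p = 0.984). These intervals, from the fit without a block, are too wide to tell a change of over 1.5-fold in either direction from none. With the replicate number as a block, *Cish* was at −0.40 (SE 0.28) and *Socs2* at −0.048 (SE 0.13). The labels do not say that equal numbers mark pairs. The sign of *Cish* turned without WT replicate 1 (0.36) and without *Themis*-KO replicate 3 (0.044), and with the mitochondrial type as a covariate it was 1.35. For *Socs2* the sign also turned with scaling by total counts alone (0.14), without WT replicate 1 (0.31), without *Themis*-KO replicate 3 (0.29) and with the covariate (0.74).

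*Igf1* (chromosome 10, 87858265 to 87937042) had a CPM of 334, 335 and 304 in WT (mean 324 ± 17.6, SD, n = 3) and 254, 285 and 200.01 in *Themis*-KO livers (246 ± 42.8). Every *Themis*-KO liver lay below every WT liver, at 0.76 times the WT mean, and the change of −0.40 (SE 0.13, adjusted p = 0.0952) missed the threshold. *Igfals* (chromosome 17, 24865997 to 24882010), the acid-labile subunit of the IGF1 complex, had 58.9, 52.7 and 34.5 CPM in WT (mean 48.7 ± 12.7, SD, n = 3) and 25.5, 26.5 and 18.3 in *Themis*-KO livers (23.4 ± 4.47). It was the gene with the largest difference of the 10, at 0.481 times the WT mean, with an interval from −1.56 to −0.55. WT replicate 3, the low WT liver for both genes, is also the one of the mitochondrial type of the *Themis*-KO livers.

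*Bcl6* (chromosome 16, 23965052 to 23988852, reverse strand) had a CPM of 28.8, 13.3 and 44.8 in WT and 34.2, 38.3 and 37.0 in *Themis*-KO livers. All *Themis*-KO livers lay inside the WT range, and WT replicate 2 had the lowest value. The log2 fold change was 0.33 (interval −0.50 to 1.15, adjusted p = 0.558). It was −0.016 without WT replicate 2 and −0.30 with the mitochondrial type as a covariate.

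The calls on *Ghr* and *Igfals* were lost in several fits that left out 1 liver, as were most calls over all genes. When WT replicate 1 or 2 was left out, or either of the first and second *Themis*-KO replicates, 0 of the 10 genes passed, with 3 or 4 lower at an unadjusted p under 0.05. In those fits 1331 to 1570 of all tested genes were lower at that threshold. Leaving out WT replicate 3 gave 2 lower calls, and leaving out *Themis*-KO replicate 3 gave 2 lower and 2 higher. Over all genes, 1321 passed as reported, but 44 and 76 without WT replicates 1 and 2, and 850 without WT replicate 3. Without *Themis*-KO replicates 1, 2 and 3 the counts over all genes were 20, 68 and 4267. Across these 6 fits the log2 fold change stayed between −0.70 and −0.49 for *Ghr*, between −1.25 and −0.90 for *Igfals*, between −0.52 and −0.28 for *Igf1* and between −0.65 and −0.32 for *Prlr*. A covariate for mitochondrial type, which in effect compares the *Themis*-KO livers with WT replicate 3 alone, left 0 of the 10 past the threshold, with 1 lower at an unadjusted p under 0.05. *Ghr* was then at −0.42 (adjusted p = 0.477), *Igfals* at −0.56 (0.450), *Igf1* at −0.30 (0.585) and *Prlr* at −0.24 (0.664). DESeq2 called all 4 of these genes lower, *Prlr* with an adjusted p of 0.0318 and *Igf1* with 0.0410. Over all genes DESeq2 called 1072 lower, against 600 by edgeR.

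**Figure D3:**
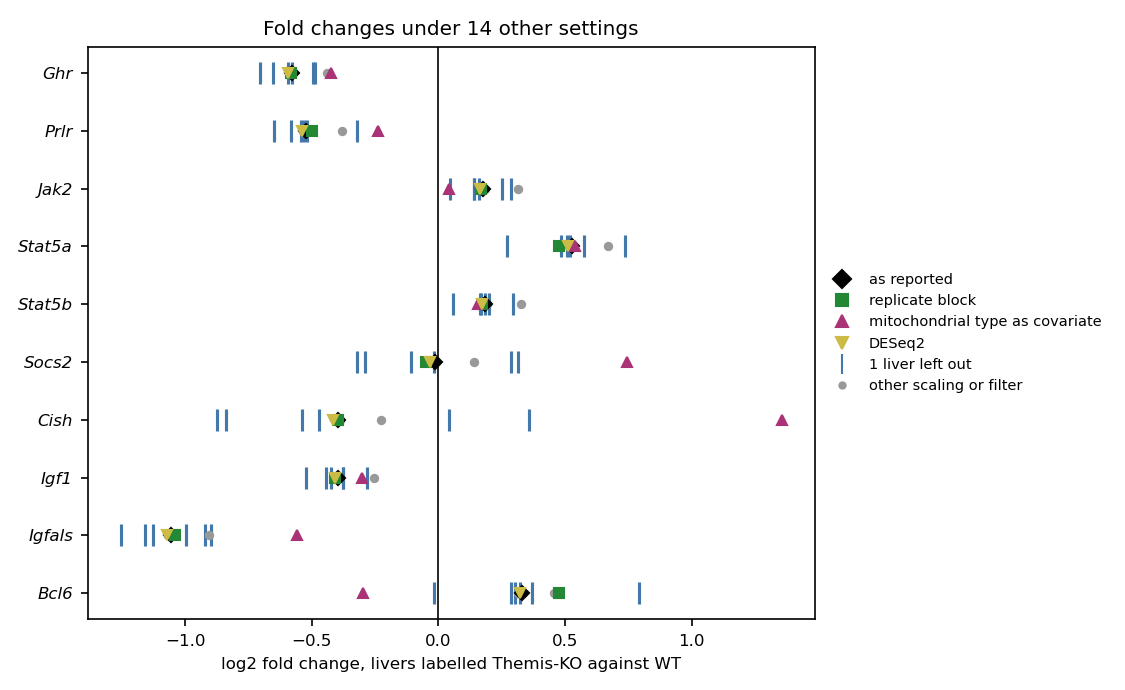
Log2 fold change of each gene as reported and under 14 other settings, with vertical ticks for the fits that leave out 1 liver. *Ghr*, *Prlr*, *Igf1* and *Igfals* stayed negative and *Jak2*, *Stat5a* and *Stat5b* positive in all 14, whereas *Socs2*, *Cish* and *Bcl6* changed sign in 4, 3 and 2 of them.

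The summed levels of hepatocyte, stellate cell, cholangiocyte and endothelial markers did not overlap between the labels, whereas those of macrophage, T cell, B cell and neutrophil markers did. The summed CPM of the hepatocyte list ran from 62600 to 68330 in WT and from 53200 to 57570 in *Themis*-KO livers. All 11 of its tested genes were negative, with a median of −0.27, and 1 of them passed, while 4.14% of all tested genes passed as lower. At an unadjusted p under 0.05, 5 of the 11 were lower, against 2011 of all 14496 tested genes. DESeq2 called 5 of the 11 lower and 0 higher, and 7 were lower without overlap, against 16.9% of all tested genes. Of the stellate cell list 6 of 11 tested genes rose, of the macrophage list 3 of 12, of the cholangiocyte list 2 of 8 and of the endothelial list 1 of 8, against 4.97% of all tested genes. Their summed CPM ran from 452 to 516, 356 to 625, 168 to 208 and 205 to 223 in WT livers. In *Themis*-KO livers the ranges were 688 to 739, 596 to 789, 400.4 to 632 and 228 to 251. Of the T cell list 1 of 6 tested genes fell. The B cell and neutrophil lists had 0 of 5 and 0 of 4 by edgeR, 0 and 4 at an unadjusted p under 0.05, and 0 and 1 with DESeq2. The 4 neutrophil genes were higher, as were 2438 of all 14496 tested genes at that unadjusted threshold. In bulk tissue fewer hepatocytes and less RNA per hepatocyte cannot be told apart, and the part of cell makeup in the values of *Ghr*, *Igf1* and *Igfals* was not tested.

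Among 8 other JAK and STAT genes, 0 passed in edgeR, a count near the 9.11% of all tested genes that passed in either direction, with 1 higher at an unadjusted p under 0.05 and 0 with DESeq2. *Stat3*, the target of IL-6 type cytokines, varied widely, with 171, 78.3 and 123 CPM in WT and 205, 197 and 77.6 in *Themis*-KO livers (log2 fold change 0.37, adjusted p = 0.551). *Jak1* differed by 0.14 (adjusted p = 0.440). Among 12 SOCS, phosphatase and PIAS genes, which restrain cytokine signals, 0 passed in edgeR and in DESeq2, again near the 9.11%. At an unadjusted p under 0.05, 4 of the 12 were higher, against 2438 of all 14496 tested genes. The median of the 12 was 0.27, and 6 were higher in every *Themis*-KO liver, against 17.7% of all tested genes. *Ptpn1*, a phosphatase that acts on JAK2, had 40.5, 34.0 and 40.0 CPM in WT and 58.0, 59.5 and 40.5 in *Themis*-KO livers (0.47, adjusted p = 0.0924). *Ptpn11*, which encodes SHP2, differed by 0.22 (adjusted p = 0.195). Without *Themis*-KO replicate 3, 4 of the 12 passed as higher. In that fit 2228 of all 14806 tested genes passed as higher.

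Carriers of IGF1 changed in different directions. Of 10 tested IGF receptor and binding protein genes, 3 rose and 1 fell, while 4.97% of all tested genes rose and 4.14% fell. *Igfbp1*, an insulin-repressed IGF binding protein, had 37.8, 26.4 and 63.8 CPM in WT and 195, 188 and 66.2 in *Themis*-KO livers, which put the difference at 1.81 log2 units (adjusted p = 0.0471, SE 0.45). The highest WT liver nearly reached the lowest *Themis*-KO liver. *Igfbp2* fell, from 164, 125 and 215 CPM to 54.8, 75.4 and 86.7 (−1.22, SE 0.23, adjusted p = 0.0273). *Igfbp7*, which nonparenchymal cells also express, rose by 0.49 (adjusted p = 0.0304) and *Igf2r* by 0.43 (adjusted p = 0.0418). These calls too were lost in several fits that left out 1 liver, as were most calls over all genes. Those went from 1321 as reported to 44 and 76 without WT replicates 1 and 2. Without *Themis*-KO replicates 1 and 2 they went to 20 and 68. Of the 10 genes, 0 passed when WT replicate 1 or 2 was left out, when the first or second *Themis*-KO replicate was, or with a covariate for mitochondrial type. *Igf2*, the fetal IGF, had too few counts to be tested.

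Male-biased genes that depend on pulsed growth hormone gave the clearest difference around the axis. Of 22 tested genes 17 fell and 0 rose, while 4.14% of all tested genes fell, and 18 of the 22 were lower without overlap. At an unadjusted p under 0.05, 18 of the 22 were lower and 0 higher, against 2011 and 2438 of all 14496 tested genes. DESeq2 called 18 of the 22 lower and 0 higher. The median was −1.46. This list was drawn up with the falls of *Mup1*, *Mup7*, *Hsd3b5* and *Sult2a8* already known, so its count is no independent evidence of a direction. *Mup7*, a major urinary protein, had 1636, 562 and 1027 CPM in WT and 17.1, 27.8 and 10.8 in *Themis*-KO livers, a log2 fold change of −5.85 (SE 0.52). *Mup1* had 13.6, 6.09 and 7.58 CPM in WT and 0.382, 0.645 and 0.236 in *Themis*-KO livers, and *Mup12* 38.7, 17.7 and 20.8 against 1.36, 1.59 and 0.661. Their adjusted p were 0.00772 for *Mup7*, 0.00918 for *Mup1* and 0.00832 for *Mup12*. The *Mup* genes are near-identical and share reads, so values of single members are uncertain. *Sult2a8*, a sulfotransferase of male liver, had 246, 251 and 161 CPM in WT and 26.2, 24.6 and 32.9 in *Themis*-KO livers, a difference of −2.97 log2 units (adjusted p = 0.00521, SE 0.20). *Hsd3b5*, a steroid reductase, had 30.3, 2.59 and 12.6 CPM in WT livers and 3 counts or fewer in each *Themis*-KO liver. It was at least 107-fold lower against the WT mean, a bound that was 18.3-fold against WT replicate 2 alone.

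The 5 genes of this list that did not pass were *Selenbp2* (−1.55, adjusted p = 0.0583), *Ugt2b38* (−1.16, 0.221), *Egfr* (−0.69, 0.370), *Mup20* (0.11, 0.693) and *Gstp1* (0.091, 0.499), picked out with their values in view. *Mup20*, the pheromone darcin, was thus at 9129, 9355 and 6112 CPM in WT and 8110, 9919 and 8602 in *Themis*-KO livers, in a family whose other 6 listed members fell. Over all genes, 600 fell as reported, 12 without *Themis*-KO replicate 1, 32 without WT replicate 1 and 41 without *Themis*-KO replicate 2. There were 57 such falls without WT replicate 2, and 369 and 2039 without the third WT and *Themis*-KO replicates. Among the 22 genes, 4 fell without *Themis*-KO replicate 1, 8 without WT replicate 1 and 8 without *Themis*-KO replicate 2. Another 2 counts of these genes were 12 without WT replicate 2 and 17 without the third replicate of either group. *Sult2a8* was the 1 gene that passed with a covariate for mitochondrial type, at −2.53 (adjusted p = 0.0222).

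**Figure D4:**
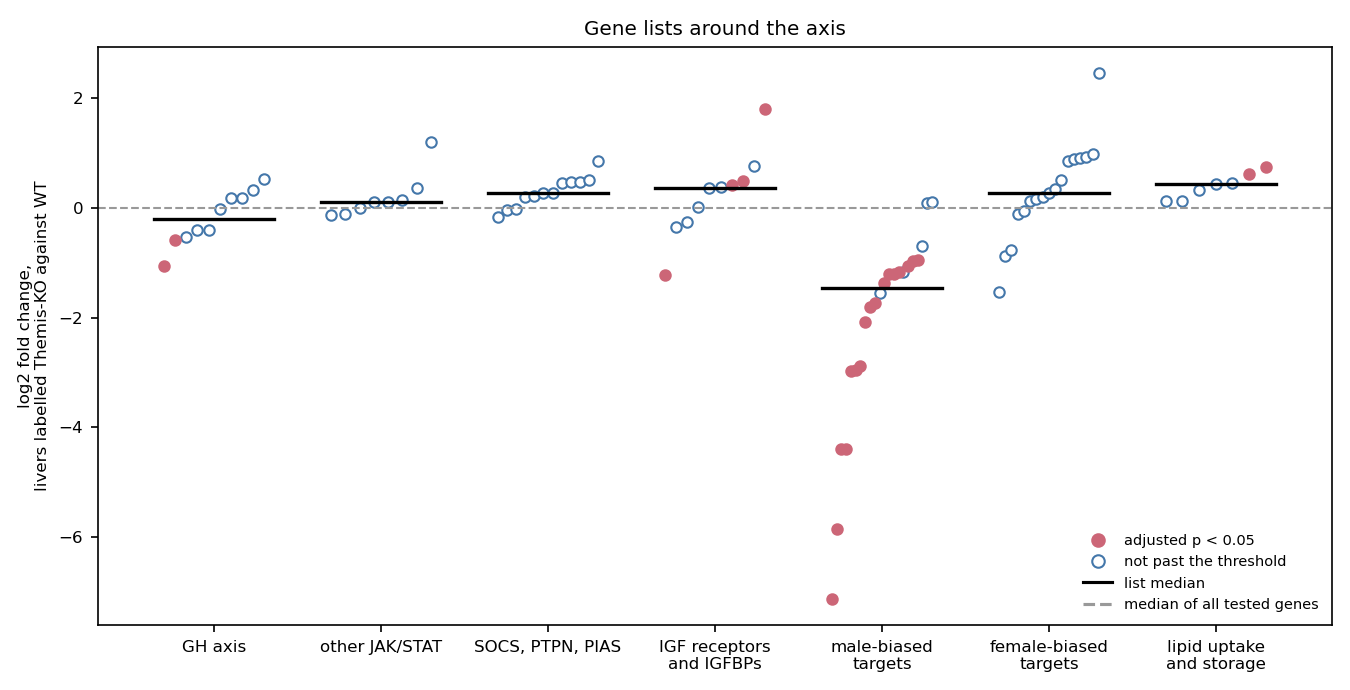
Log2 fold change of every tested gene in 7 lists, livers labelled *Themis*-KO against WT; filled points passed an adjusted p of 0.05, solid lines are list medians, and the dashed line is the median of all tested genes. Male-biased targets had 17 of 22 points filled, all below 0, with a median of −1.46, and female-biased targets had none filled; the lowest point is *Hsd3b5*, whose fitted value depends on the prior count.

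Female-biased genes did not pass. Of 17 tested genes 0 were called by edgeR, while 9.11% of all tested genes were. At an unadjusted p under 0.05, 5 of the 17 were higher and 1 lower, against 2438 and 2011 of all 14496 tested genes. DESeq2 called 2 of the 17 higher and 1 lower. The median was 0.28, and 6 of the 17 were higher in every *Themis*-KO liver, against 17.7% of all tested genes. *Cyp2b9*, a female-biased cytochrome P450, had 26.7, 58.7 and 58.6 CPM in WT and 90.5, 72.6 and 107 in *Themis*-KO livers (0.90, SE 0.29, adjusted p = 0.0845). *Cyp2a4*, a steroid hydroxylase that shares reads with *Cyp2a5*, had 1.74, 14.7 and 21.7 CPM in WT and 46.8, 55.1 and 109 in *Themis*-KO livers (2.46, SE 0.70, adjusted p = 0.0645). Both were higher in every *Themis*-KO liver, and WT replicate 1 was the lowest liver for both. *Cux2*, the female-specific repressor, had too few counts to be tested.

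Lipid uptake and storage genes, some of which rise when hepatic growth hormone signalling is lost, were all positive. Of 7 tested, 2 rose, while 4.97% of all tested genes rose, and the median was 0.44. *Cidec*, a lipid droplet protein, had 121, 150.6 and 147 CPM in WT and 222, 220.0 and 199 in *Themis*-KO livers (0.62, SE 0.11, adjusted p = 0.0249). *Lpl*, which releases fatty acids from lipoproteins and is also made by macrophages, rose by 0.76 (SE 0.18, adjusted p = 0.0412). Neither gene passed when WT replicate 1 or 2 was left out, when the first or second *Themis*-KO replicate was, or with a covariate for mitochondrial type. Over all genes, 20 to 76 passed when any of these livers was left out, against 1321 as reported. *Cd36* differed by 0.34 (adjusted p = 0.124) and *Pparg* by 0.13 (adjusted p = 0.728). *Cd36* and *Pparg* were picked out with their values in view.

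The genes whose course over the 6 livers was most like that of a member were found by the root mean square difference of log2 CPM, each gene centred on its own mean. For *Ghr*, whose own log2 range was 0.957, these included *Nit2* (0.0382) and *Slco1b2* (0.0423), and 116 genes lay within 0.1. For *Igf1*, with a range of 0.744, they were *Gm20257* (0.0508), *Hsd17b2* (0.0565) and *Gm12909* (0.0719), and 10 genes lay within 0.1. For *Bcl6*, with a range of 1.75, the nearest were *Tnfsf13* (0.123), *Dynlt1f* (0.171) and *Havcr2* (0.198), and 0 genes lay within 0.1. *Tnfsf13*, *Dynlt1f* and *Havcr2* were also low, between 0.768 and 4.95 CPM. *Slco1b2*, a hepatocyte uptake transporter, had 844, 937 and 773 CPM in WT and 559, 520.0 and 689 in *Themis*-KO livers.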

How the data were processed

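Livers of 3 mice labelled WT and 3 labelled *Themis*-KO were profiled by poly(A) RNA-seq as paired-end reads of 151 bp. The authors trimmed reads with cutadapt 2.3, aligned them to GRCm38 with STAR 2.7.8a and estimated reads per gene with RSEM 1.3.3, according to the Methods and the submitters' processing notes. The release of the annotation is not given in the sources used here. The authors deposited estimated counts per gene and liver, not normalized and rounded to whole numbers, and RSEM divides reads that fit several genes. Strand use in the counting is not stated, so reads of antisense partners cannot be told apart. Totals ran from 20679642 to 25649767 counts.

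The analysis used edgeR 4.0.16 on top of limma 3.58.1, under R 4.3.3. filterByExpr kept 14496 of 25403 genes. Libraries were TMM-scaled and genotypes compared over all genes with glmQLFit and glmQLFTest, without covariates, with Benjamini-Hochberg adjustment over all tested genes and a threshold of 0.05. The Methods name DESeq2, which was run as an alternative (version 1.42.0). SE were derived from the F statistic. CPM carry no prior count, except a prior of 2 in log2 CPM used to find genes of like course. For a gene with 3 counts or fewer in every liver of a group, the fold is a lower bound against 3 counts in the shallowest liver. Nothing states separate cages or litters, and p-values measure the spread between these livers. No pair of livers agreed within sampling noise (chi-square per degree of freedom of 9.80 or more), so each counted as 1 replicate.

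The members and all gene lists were chosen with earlier results of these data known. The genes named are *Themis*, the 10 members, and, of each list other than the cell-type markers, up to 5 genes that passed without overlap and had the largest change, or the 2 most abundant where fewer than 2 did. The 3 genes nearest in course to each of *Ghr*, *Igf1* and *Bcl6* are also named, except for an item that is not reported here. Marker lists are given by counts, with *Alb*, *Ddx3y* and *Xist* as checks of tissue and sex and *Gm28438* and *mt-Nd3* as the measure of the mitochondrial type. Other genes named outside the rule, such as *Igf2*, *Cux2*, *Egfr* and *Saa1*, were chosen with their values in view. Of the listed symbols, *Sult2a1*, *Cyp3a16*, *Tf* and *Ly6g* were not analysed here.

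Alternatives were RLE, upper quartile and total-count scaling, other filters (none, or at least 10 counts in every liver), DESeq2, the replicate number as a block, the mitochondrial type as a covariate and each liver left out in turn. Both tools were tested on simulated data drawn from these libraries' means and dispersions. Of the 196 genes edgeR called there, 17 were unchanged, and of the 220 genes DESeq2 called, 39 were. Gene coordinates came from GENCODE vM21 and promoters from RefSeq, both on GRCm38. Figures were drawn with matplotlib 3.10.9.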

Additional observations from a re-analysis of the deposited data

How the results depend on the processing

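The count of axis genes that passed, 2 as reported, was 3 with no filter on low counts, 4 with DESeq2, 1 with the replicate block (*Igfals*, adjusted p = 0.0382, while *Ghr* at −0.58 had 0.118) and 0 with the mitochondrial type as a covariate, and ran from 0 to 4 with each liver left out, as named in the report. For the male-biased targets, 17 as reported, it was 12 with the block, 1 with the covariate and from 4 to 17 with a liver left out. For the IGF receptors and binding proteins, 4 as reported, it was 0 with the block and with the covariate and from 0 to 5 with a liver left out. For the lipid genes, 2 as reported, it was 0 with the block and with the covariate and from 0 to 2 with a liver left out. For the female-biased targets, 0 as reported, it was 2 with total counts alone, 4 with no filter, 1 with at least 10 counts in every liver, 3 with DESeq2 and from 0 to 2 with a liver left out. The SOCS, phosphatase and PIAS genes ran from 0 to 4, and the other JAK and STAT genes stayed at 0 under all 14 alternatives. Of all genes, 1321 passed as reported, 2179 with no filter, 2279 with DESeq2, 62 with the block, 3 with the covariate and from 20 to 4267 with a liver left out. The causes were not tested, beyond the fewer livers or residual degrees of freedom of the leave-out, block and covariate fits.

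The sign turned for *Socs2* with total counts alone (0.14), the covariate (0.74), without WT replicate 1 (0.31) and without *Themis*-KO replicate 3 (0.29). It turned for *Cish* with the covariate (1.35), without WT replicate 1 (0.36) and without *Themis*-KO replicate 3 (0.044), and for *Bcl6* with the covariate (−0.30) and without WT replicate 2 (−0.016). The other 7 axis genes kept their sign under all 14 alternatives. With a liver left out, *Socs2* ran from −0.32 to 0.31, *Cish* from −0.87 to 0.36 and *Bcl6* from −0.016 to 0.79. Total counts alone moved the median of all tested genes from 0.0095 to 0.15 and the calls over all genes from 721 higher and 600 lower to 1449 higher and 387 lower. *Ghr* (−0.44) and *Igfals* (−0.91) passed there too. Deviations from the group means had a mean correlation of −0.13 between livers with the same replicate number. The 0.066 for different numbers is no separate yardstick, since the deviations cancel out within each group. The numbers were not taken as pairs, but a mean over all genes cannot decide this for single genes such as *Cish* and *Socs2*. At these depths the 3 livers of a group, and not the counts, limit *Cish*, *Socs2* and *Bcl6*.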

Other observations

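Acute phase genes respond to IL-6 and STAT3 in hepatocytes. Of 12 tested, 2 rose and 0 fell by edgeR, while 4.97% of all tested genes rose and 4.14% fell, with the same counts by DESeq2 and at an unadjusted p under 0.05, and the median was −0.10. *Lcn2*, an iron-siderophore binding protein also made by neutrophils, had 65.7, 48.0 and 57.9 CPM in WT and 120, 197 and 128 in *Themis*-KO livers (1.37, SE 0.20, adjusted p = 0.0161). *Orm2* rose by 0.64 (SE 0.099, adjusted p = 0.0185). *Saa1*, named after its values were seen, had 388, 100.1 and 128 CPM in WT and 154, 231 and 118 in *Themis*-KO livers, and the groups overlapped (−0.29, adjusted p = 0.719).

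*Themis*-KO replicate 3 was the lowest *Themis*-KO liver for 7 of the 10 axis genes, and for 6 of them it was the lowest of all 6 livers. For *Ghr* it was the highest of its group. Among WT livers, replicate 3 was the lowest for 6 genes and replicate 2 for 4. *Egfr* was at 70.7 CPM in *Themis*-KO replicate 3, against 265 to 480 CPM in the other 5 livers.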
